A study of Vulpes lagopus with 12 samples.

Results

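The interleukin 1 family and its receptors were followed in blood RNA on 12 arrays, 1 titled a canine control and 11 of Arctic foxes (Vulpes lagopus). Members were taken by symbol: the probe annotation gave 9 of the 10 genes looked for, on 14 of 42924 tested probe sets, beside 15115 genes in all. These were the ligands IL1A, IL1B and IL18, the antagonist IL1RN, the receptors IL1R1, IL1R2 and IL1RAP, the inflammasome sensor NLRP3 and the signalling inhibitor IRAK3. No probe set was annotated as CASP1 alone, and it was not analysed here. The arrays carry probes designed for the dog, and the values are RMA values on a log2 scale, so a difference of 1 is a doubling. The control is 1 array with no replicate. Its organism and tissue labels read Vulpes lagopus and blood, as for the foxes, and no treatment, age or strain is given for any array. The study asked about polychlorinated biphenyls and mercury in the foxes' blood cells, but the labels give no exposure of single foxes, so foxes were not grouped. They are numbered 1 to 11 in the order of the series.

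Interleukin 1 is a fever-inducing signal of the innate immune system. IL1A and IL1B bind the receptor IL1R1, which then recruits the accessory protein IL1RAP and signals through MYD88 and kinases of the IRAK family. Brakes act at several levels: IL1RN occupies IL1R1 without signalling, IL1R2 is a decoy that binds the ligand but lacks a signalling domain, and IRAK3 restrains the kinases inside the cell. IL1B and IL18 are made as inactive precursors, which the protease caspase 1 cuts once a sensor such as NLRP3 has assembled an inflammasome. In blood these genes are best known from monocytes and neutrophils.

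Marker genes were checked first. The 6 measured neutrophil markers averaged 6.66 on the control array and 9.52 to 12.30 in the foxes, and 4 of them were called lower, beside 44.6% of all genes. The 6 monocyte markers averaged 8.34 on the control and 8.80 to 10.24 in the foxes, with 3 called lower, close to that share. All 8 liver markers were called higher on the control, beside 18.5% of all genes, where they averaged 13.08, against 6.45 to 6.77 in the foxes. Intestinal markers averaged 11.85 on the control and 6.30 to 6.70 in the foxes, and skeletal muscle markers 11.28 and 6.86 to 7.38. CDX2 of the intestine (6.84 on the control) and MB of muscle (8.47) did not follow these means. The blood label of that array thus goes against its liver, intestinal and muscle means. Its T cell mean of 7.76 and NK and cytotoxic mean of 7.81 lay inside the foxes, at 7.75 to 8.67 and 7.01 to 8.61. Foxes 9, 10 and 11 stood apart on array quality controls: in one of the array's pairs of GAPDH probe sets, the 3' minus middle difference was 0.42 to 1.08 in these foxes and 2.56 to 3.19 in foxes 1 to 8. In the other GAPDH pair the groups overlapped, at −0.96 to −0.60 in foxes 9, 10 and 11 and −0.77 to −0.28 in foxes 1 to 8. Of the 2 actin pairs, 1 separated them (0.16 to 0.26 against 2.14 to 5.21) and 1 did not (4.40 to 5.11 against 3.84 to 5.78), nor did EF1a (3.06 to 3.73 against 2.41 to 3.43). Means of marker lists also differed in these foxes. Their neutrophil mean was 10.79 to 12.30 against 9.52 to 11.08 in foxes 1 to 8, with some overlap. Their monocyte mean was 9.99 to 10.24 against 8.80 to 9.37. Their T cell mean was 8.45 to 8.67 against 7.75 to 8.08, their NK and cytotoxic mean 7.96 to 8.61 against 7.01 to 7.65, and their platelet mean 9.44 to 9.74 against 7.93 to 9.28. Their B cell mean was lower, at 6.65 to 6.87 against 6.91 to 7.12. Single markers did not all follow. In these foxes 2 of 6 neutrophil, 4 of 6 monocyte and 5 of 8 T cell markers lay above all of foxes 1 to 8. So did 4 of 6 NK and cytotoxic and 2 of 5 platelet markers, beside 14.2% of all genes. Of the 5 B cell markers 0 lay below, beside 14.6% of all genes. In whole blood, fewer cells of a type and less RNA per cell cannot be told apart.

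**Figure D1:**
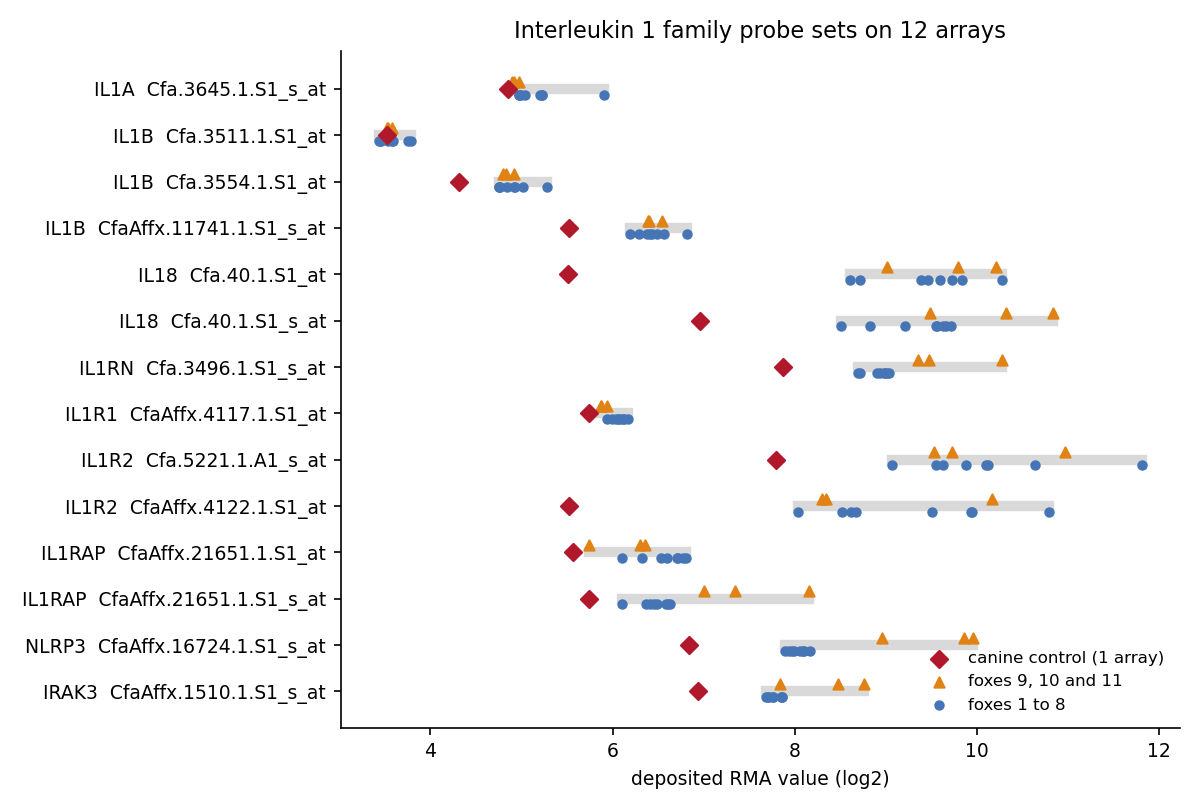
Deposited RMA values (log2, horizontal axis) of the 14 probe sets of the family, 1 row each. Diamonds are the canine control, triangles foxes 9, 10 and 11, circles foxes 1 to 8, and the grey bar spans the 11 foxes. The control lies left of all foxes in 13 of 14 rows, and the triangles stand right of every circle for IL1RN, NLRP3 and 1 probe set of IL1RAP.

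The spread between foxes asked which members differed among the 11 blood samples. IL1R2, the decoy receptor, varied most, and it did so among foxes 1 to 8 as well as over all foxes. NLRP3, IL1RN, IRAK3 and IL1R1 were nearly even in foxes 1 to 8, and the first 2 of these, with 1 probe set of IL1RAP, were higher in every one of foxes 9, 10 and 11. An SD of at least 0.5 over 11 foxes was found for 6 of the 14, beside 14.8% of all tested probe sets. Within foxes 1 to 8 the count was 3 of 14, beside 7% of all. The 3 were both probe sets of IL1R2 and 1 of IL18. With 1 probe set a gene (highest mean), the count was 4 of 9 genes over 11 foxes, beside 2760 of all 15115 genes. Within foxes 1 to 8 it was 1 of 9 genes, IL1R2, beside 1453 of 15115. By gene, the family as a whole is therefore not read as more variable than other genes within foxes 1 to 8.

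The decoy receptor IL1R2 had 2 probe sets, and fox 4 was highest in both. In the first (an _s_at set, whose probes can match several transcripts) the foxes ran from 9.07 in fox 1 through a median of 9.88 to 11.81 in fox 4. In the second (an _at set) they ran from 8.03 in fox 7 through 8.67 to 10.79 in fox 4. Foxes 10 and 8 were also high in both, at 10.97 and 10.64 in the first and at 10.17 and 9.94 in the second, while fox 2 was high in the second (9.94) and below the median in the first (9.63). The SD over foxes 1 to 8 was 0.83 and 0.94 (n = 8). An SD at least as large was found in 1.08% of all tested probe sets for the first and in 0.573% for the second.

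The 2 probe sets of IL1R2 ordered foxes 1 to 8 alike in part. Pearson's r between them was 0.72 (exact permutation p = 0.0345, two-sided, n = 8 foxes) and Spearman's rho 0.67 (exact p = 0.0831). Neither passed adjustment over the 6 pairs of probe sets that target 1 gene (adjusted p = 0.104 for r and 0.342 for rho, exact permutation). Without foxes 1 and 4, the farthest from the median, r was 0.34 (exact permutation p = 0.514, n = 6). Leaving out the farthest foxes narrows the range, so this r cannot show whether the probe sets agree in the others. In fox 4 the mean of the neutrophil markers was 10.33 and that of the monocyte markers 9.31, among the higher values of foxes 1 to 8, which reached 11.08 in fox 2 and 9.37 in fox 8. The part of these markers in the IL1R2 spread was not tested.

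**Figure D2:**
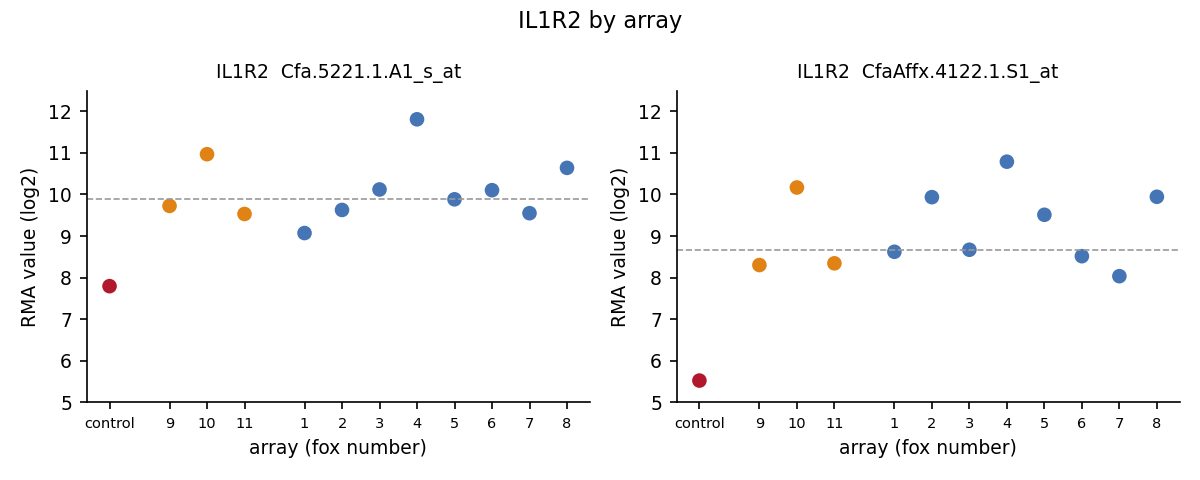
RMA values (log2, vertical axis) of the 2 IL1R2 probe sets on each array: the control in red, foxes 9, 10 and 11 in orange and foxes 1 to 8 in blue, with a dashed line at the fox median. Fox 4 is highest in both panels, at 11.81 and 10.79, and the control lowest, at 7.79 and 5.52.

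By likeness over foxes 1 to 8, the 3 genes nearest to the first IL1R2 probe set were EEA1, a tether of early endosomes (r = 0.95), TRDMT1, an RNA methyltransferase (r = 0.93), and FZD6, a Wnt receptor (r = 0.92). They were picked as the highest of 1452 genes with an SD of at least 0.5 in those foxes, so these r values carry no test. Of those genes 10, or 0.689%, reached an r of 0.9. Against the second IL1R2 probe set the same genes had r of 0.54, 0.74 and 0.77. Fox 4, the highest in IL1R2, was also the highest of foxes 1 to 8 in all 3 genes. It had 9.15 in EEA1 (the others 7.20 to 8.28), 10.07 in TRDMT1 (7.92 to 8.75) and 9.98 in FZD6 (8.17 to 9.34). These r values were not computed without fox 4, so they may rest largely on that sample.

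The signalling receptor IL1R1, which binds the ligand and transmits the signal, varied little. Foxes ran from 5.88 in fox 11 through 6.04 to 6.16 in fox 5 (SD 0.10, n = 11). In 96.6% of tested probe sets the SD over foxes was at least as large, but this probe set reads low, and the files do not show whether it detects the transcript. Its 1 probe set lay just below foxes 1 to 8 in foxes 9, 10 and 11, at 5.88, 5.94 and 5.88, against 5.94 to 6.16. That gap was lost with arrays centred on their medians and with quantile normalization again.

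IL1RAP, the accessory receptor, had 2 probe sets that disagreed. In the _s_at set foxes 9, 10 and 11 stood at 7.35, 8.15 and 7.01, and foxes 1 to 8 between 6.10 and 6.63 with a median of 6.47. The groups did not overlap. In the _at set the same foxes stood at 6.31, 6.36 and 5.74, inside or below foxes 1 to 8, which ran from 6.10 to 6.81 around 6.65. Fox 11, the lowest of all foxes in the _at set, was above all of foxes 1 to 8 in the _s_at set.

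NLRP3, the sensor that assembles the inflammasome, separated foxes 9, 10 and 11 by the widest gap among the 14 probe sets. They stood at 9.96, 9.86 and 8.96, and foxes 1 to 8 between 7.89 and 8.16 with a median of 8.03. The median of these foxes was 1.83 higher. Within foxes 1 to 8 the SD was 0.09 (n = 8), and 94.0% of tested probe sets had an SD there at least as large.

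IL1RN, the receptor antagonist, showed the same order at a smaller size. Foxes 9, 10 and 11 had 9.35, 10.27 and 9.47, and foxes 1 to 8 between 8.70 and 9.03 around 8.96. Fox 10 was the highest, and the groups did not overlap as deposited, although they did after quantile normalization again. IRAK3, the inhibitory kinase, stood at 8.47 and 8.76 in foxes 9 and 10 and at 7.83 in fox 11, against 7.69 to 7.86 in foxes 1 to 8 with a median of 7.76. Fox 11 lay inside foxes 1 to 8 and the other two above. The SD of IRAK3 within foxes 1 to 8 was 0.07 (n = 8), and 98.3% of tested probe sets were at least as variable.

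In all, 3 of 14 probe sets lay above foxes 1 to 8 in every one of foxes 9, 10 and 11 (IL1RN, NLRP3 and IL1RAP), beside 12.6% of all tested probe sets, and 1 lay below (IL1R1), beside 14.6%. These foxes were set apart by earlier results on the same arrays and by the quality controls above, so no test was made. The monocyte mean and 1 of the 2 GAPDH pairs also separated these foxes, while the neutrophil mean and the other GAPDH pair overlapped. Fox 2 had a neutrophil mean of 11.08 and an NLRP3 value of 8.09, against 10.79 and 8.96 in fox 11. The monocyte mean of fox 2 was 9.11, against 9.99 in fox 11. Of the neutrophil markers, CSF3R (8.38 against 9.67) and PADI4 (7.03 against 8.20) were lower in fox 2 than in fox 11. S100A8, S100A9, MMP9 and PGLYRP1 were higher in fox 2. The part of these measures in the result was not tested.

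**Figure D3:**
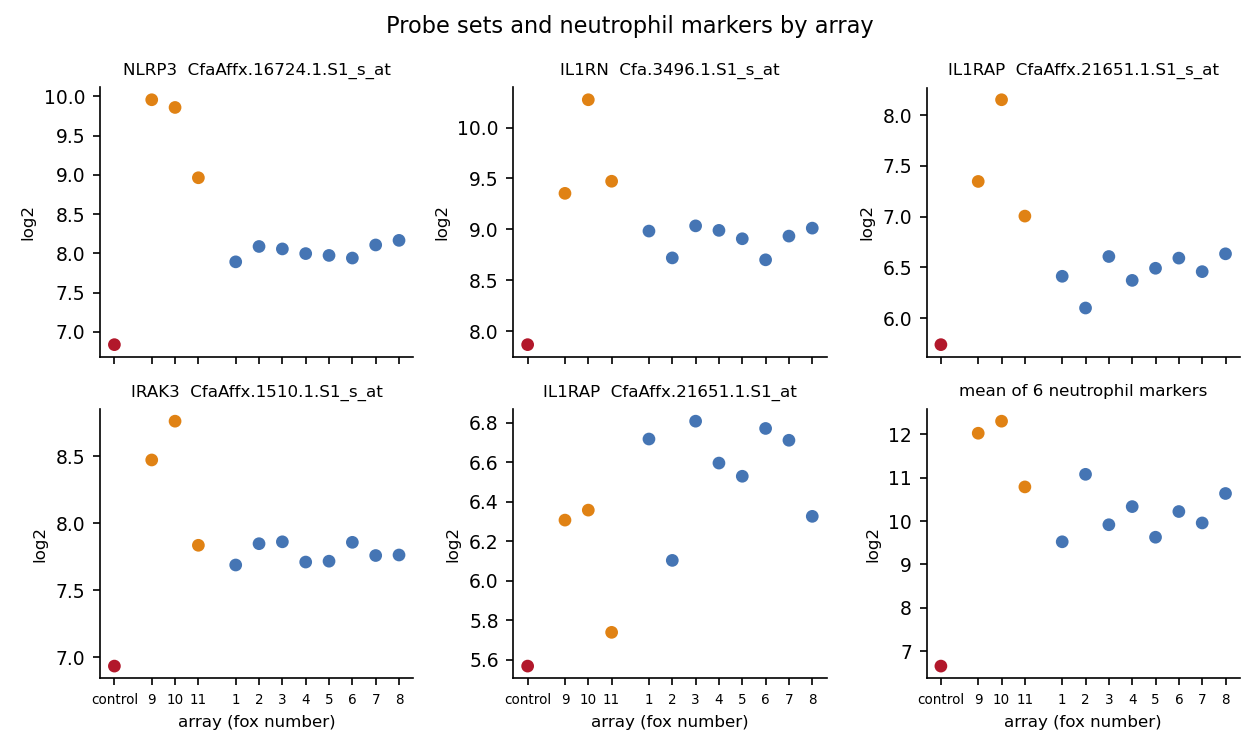
Log2 values (vertical axes, each panel with its own range) on each array for NLRP3, IL1RN, IL1RAP (2 probe sets) and IRAK3, and the mean of 6 neutrophil markers. The control is red, foxes 9, 10 and 11 orange, foxes 1 to 8 blue. NLRP3 reads 8.96 to 9.96 in foxes 9, 10 and 11 and 7.89 to 8.16 in foxes 1 to 8, while in the IL1RAP probe set of the lower row these foxes read 5.74 to 6.36, against 6.10 to 6.81 in foxes 1 to 8.

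IL18, a ligand cut by caspase 1 and an inducer of interferon gamma, had 2 probe sets. In its _at set the foxes ran from 8.61 in fox 2 through 9.60 to 10.27 in fox 6, and in its _s_at set from 8.50 in fox 2 through 9.56 to 10.84 in fox 9. Foxes 1 and 2 were the lowest in both. Over foxes 1 to 8 the 2 probe sets had r = 0.86 (exact permutation p = 0.00878, adjusted p = 0.0527 over the 6 pairs, n = 8) and rho = 0.55 (exact p = 0.171). Without foxes 1 and 2, the farthest from the median, the r was 0.28 (exact permutation p = 0.542, n = 6). Here too the range is narrowed, so this r cannot show whether the probe sets agree in the others.

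The 2 ligands of the interleukin 1 receptor read low on these arrays. The 3 probe sets of IL1B ran over the foxes from 3.43 through 3.54 to 3.79 in one _at set, from 4.75 through 4.84 to 5.28 in the other _at set, and from 6.19 through 6.41 to 6.82 in the _s_at set. Their SDs were 0.11, 0.15 and 0.16 (n = 11), and they did not rank the foxes alike: fox 6 was highest in the other _at set and lowest in the _s_at set. IL1A, the other agonist, ran from 4.90 through 5.0 to 5.90, with fox 2 the highest and fox 3 next at 5.22. Its SD was 0.29 (n = 11), and 31.8% of tested probe sets were at least as variable. These 4 probe sets, and those of IL1R1 and IL1RAP, lay below the median probe set of the arrays. The files give no background level, so whether these probe sets detect the transcript in any sample cannot be read from them.

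By the same rule of likeness, the genes nearest to the _s_at set of IL1B over foxes 1 to 8 were MIOX, an enzyme of inositol breakdown (r = 0.90), PMM1, a phosphomannomutase (r = 0.90), and UCP2, a mitochondrial carrier (r = 0.89). Of 1453 genes compared, 0 reached an r of 0.9, counting values before rounding. Fox 2, the highest in this IL1B set, was also the highest of foxes 1 to 8 in all 3 genes. It had 9.91 in MIOX (the others 8.25 to 8.91), 10.35 in PMM1 (8.11 to 9.23) and 12.70 in UCP2 (10.14 to 11.18). The r values were not computed without fox 2. The IL1B set varied little (SD 0.19, n = 8), and its r with the _at set of higher values was −0.54.

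Pairs of members were set against each other within foxes 1 to 8, since foxes 9, 10 and 11 form a cluster of their own. Each gene was read from its probe set with the highest mean, which is the _s_at set for IL1B, IL1R2 and IL1RAP. Of 6 pairs, 0 passed at an adjusted p under 0.05 by exact permutation, and 0 did at an unadjusted p. Pearson's r ran from −0.37 (IL1B and IL1R2) to 0.59 (IL1R1 and IL1R2). When the probe sets of each gene were averaged, r was 0.037 for IL1B and IL1R2 and −0.61 for IL1B and IL1RN. For IL1R1 and IL1R2, the signalling and the decoy receptor, the exact permutation p was 0.122 (adjusted 0.688, n = 8) and rho was 0.60 (exact p = 0.132, adjusted 0.584). Without foxes 1 and 5 the r was 0.69 (exact p = 0.114, n = 6). This pair passed only after quantile normalization again (r = 0.86, adjusted exact p = 0.0314). For IL1B and its antagonist IL1RN, r was −0.22 (exact p = 0.595, adjusted 0.806, n = 8) and rho −0.14 (exact p = 0.752, adjusted 0.752). Without foxes 2 and 6 the r was −0.56 (exact p = 0.25, n = 6), without fox 2 alone it was 0.52, and without fox 6 alone it was −0.91 (adjusted exact p = 0.105, n = 7). For IL1B and NLRP3, r was 0.41 (exact p = 0.328, adjusted 0.688, n = 8), rho was 0.45 (exact p = 0.267, adjusted 0.584), and without foxes 2 and 6 r was 0.12 (exact p = 0.842, n = 6).

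The control array against the foxes asked which members lay outside the levels of fox blood. That array is titled canine, was read with dog probes and had high liver, intestinal and muscle means. Species, probe match and tissue therefore cannot be told apart in any difference below. Its array median was also lower, at 6.85 against 7.06 to 7.17 in the foxes. IL18 and IL1R2 were far lower on the control, by both probe sets of each, and IL1B, IL1RN, IRAK3 and 1 probe set of IL1RAP were lower by a smaller amount. IL1A, IL1R1, NLRP3, the other IL1RAP probe set and 1 probe set of IL1B were not called. Limma called 9 of 14 probe sets, beside 61% of all tested probe sets called in either direction. It called 9 lower and 0 higher at a Benjamini-Hochberg adjusted p under 0.05, beside 42.1% of all tested probe sets lower and 18.9% higher. The 14 probe sets stand for 9 genes, so some genes count more than once. With 1 probe set a gene (highest mean), 5 of 9 genes were called lower, beside 44.6% of all genes. Called higher were 0, beside 18.5%. The control lay below all 11 foxes in 13 of 14 probe sets, beside 55.1% of all, and above them in 0, beside 21.9%. The median difference was −1.0 over the 14 and −0.46 over all tested probe sets.

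**Figure D4:**
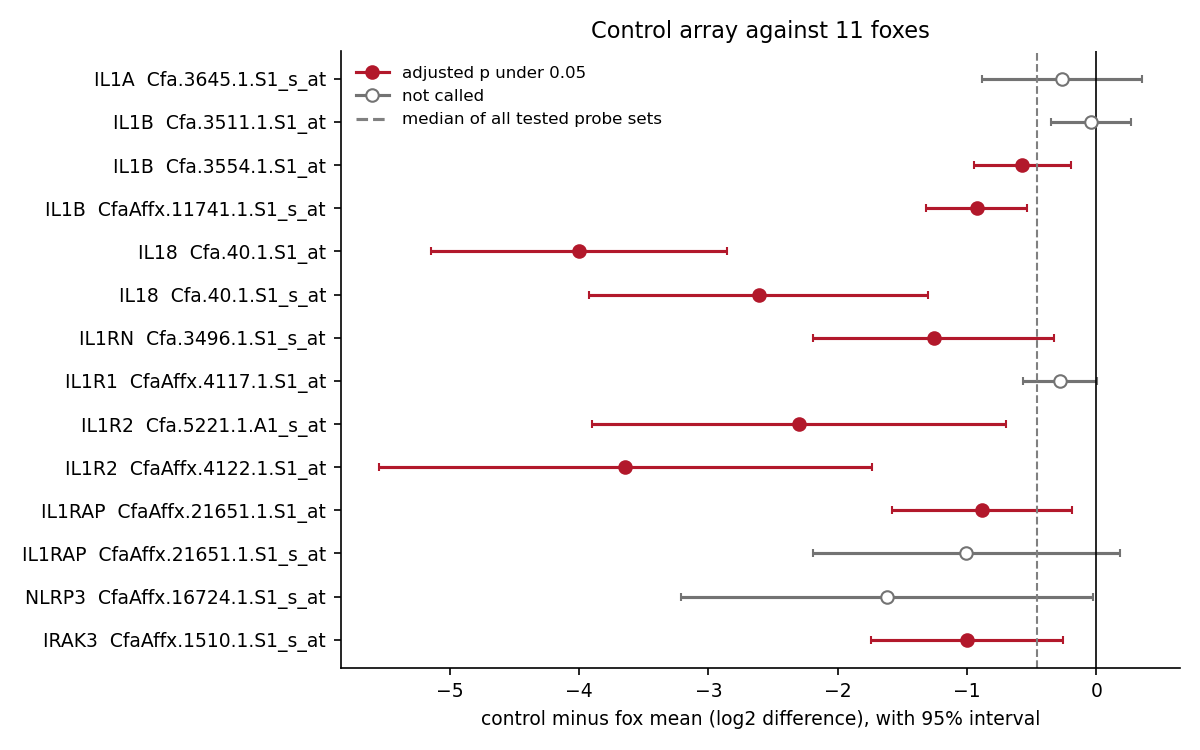
Control minus fox mean (log2 difference, horizontal axis) for the 14 probe sets, with the 95% interval of the limma fit. Filled red points have an adjusted p under 0.05, open grey points were not called, and the dashed line marks the median of all tested probe sets at −0.46. IL18 and IL1R2 lie farthest left, at −4.00 and −3.64 in their lower probe sets.

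IL18 read 5.51 on the control, against 9.51 ± 0.55 in the foxes (SD, n = 11), in its _at set. The difference was −4.00 (SE 0.53, limma adjusted p = 6.13e-05). In its _s_at set it read 6.96 on the control, against 9.57 ± 0.63 (SD, n = 11), a difference of −2.61 (SE 0.60, limma adjusted p = 0.00320). Relative to the median of all probe sets these differences were −3.54 and −2.15. The control lay below the lowest fox in both.

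IL1R2 read 7.79 on the control, against 10.09 ± 0.78 in the foxes (SD, n = 11), in its first probe set, and 5.52 against 9.17 ± 0.93 in its second. The differences were −2.30 (SE 0.74, limma adjusted p = 0.0178) and −3.64 (SE 0.88, limma adjusted p = 0.00404), or −1.84 and −3.19 relative to the median of all probe sets. Of the neutrophil markers, which were low on the same array, S100A8 differed by −5.75 and MMP9 by −3.33. Their part in the IL18 and IL1R2 differences was not tested.

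Differences of the other members were smaller, and several calls among them changed with the scaling. IL1B was lower on the control in its _s_at set, at 5.52 against 6.45 ± 0.16 in the foxes (SD, n = 11), a difference of −0.93 (SE 0.18, limma adjusted p = 0.00107), or −0.47 relative to all probe sets. Limma also called it after quantile normalization again (adjusted p = 0.00933) and with centred arrays (0.00902). The _at set with the higher fox values differed by −0.57 (SE 0.17, limma adjusted p = 0.0129), which was lost once arrays were centred (adjusted p = 0.166), and the other _at set by −0.04, with a 95% interval from −0.35 to 0.27. IL1RN read 7.87 on the control, against 9.12 ± 0.45 (SD, n = 11), a difference of −1.26 (SE 0.43, limma adjusted p = 0.0234). IRAK3 read 6.93, against 7.93 ± 0.35, a difference of −1.0 (SE 0.34, limma adjusted p = 0.0236). Limma called neither once each array was centred on its median (adjusted p = 0.0919 for IL1RN and 0.113 for IRAK3), and IRAK3 was also lost after quantile normalization again (0.0517).

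NLRP3 read 6.84 on the control, against 8.45 ± 0.78 in the foxes (SD, n = 11), a difference of −1.62 (SE 0.73) that missed the threshold (limma adjusted p = 0.0726). It was called without fox 9 (−1.47, limma adjusted p = 0.0483), and without foxes 9, 10 and 11 (−1.19, limma adjusted p = 3.70e-05). IL1RAP differed by −1.0 (SE 0.55, limma adjusted p = 0.126) in the probe set in which these foxes were high, and was called there without fox 10 (adjusted p = 0.0414) or without all 3 (−0.72, adjusted p = 0.00584). In its other probe set it differed by −0.88 (SE 0.32, limma adjusted p = 0.0311), a call that was lost under quantile normalization again (0.0982) and with centred arrays (0.130). IL1R1 differed by −0.28 (95% interval −0.56 to 0.01, limma adjusted p = 0.0823) and was called without foxes 9, 10 and 11 (−0.32, adjusted p = 0.0352). IL1A differed by −0.27 (95% interval −0.89 to 0.35). IL1A and IL1R1 lay 0.19 and 0.18 above the median difference of all probe sets.

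The other genes of the pathway were taken from 4 lists, of which 44 of 56 genes were measured. Limma called 24 of the 44 lower on the control and 2 higher, beside 44.6% of all genes lower and 18.5% higher. The median difference was −0.80, and −0.53 over all genes. The counts of each list below are to be read beside the same shares of all genes.

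Among other ligands and receptors of the family, 9 of 11 were called lower and 1 higher. The one higher was IL33, an alarm signal of barrier tissues, at 9.96 on the control and 3.67 ± 0.11 in the foxes (SD, n = 11), a difference of 6.29 (SE 0.14, limma adjusted p = 2.60e-12). IL18RAP, the accessory chain of the IL18 receptor, differed by −2.75 (limma adjusted p = 0.0383) and IL1RAPL1, a relative of IL1RAP known from neurons, by −1.5 (0.00160). IL18BP, the secreted trap for IL18, differed by −1.40 and was not called (limma adjusted p = 0.109).

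Of the adaptors and kinases, 6 of 11 were called lower and 0 higher. IRAK4, the first kinase recruited to the receptor, differed by −1.92 (limma adjusted p = 5.63e-04). MYD88, the adaptor, at −1.31, the kinase IKBKB at −1.01 and the ubiquitin ligase PELI1 at −0.96 were not called, with limma adjusted p of 0.220, 0.0532 and 0.204. Of the inflammasome and pyroptosis genes, 5 of 10 were called lower and 0 higher. NEK7, a partner of NLRP3, differed by −1.61, NINJ1, which ruptures the membrane of dying cells, by −1.55, the ATP receptor P2RX7 by −0.99 and the channel PANX1 by −0.96.

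Of 12 targets of interleukin 1, 4 were called lower and 1 higher. TNF, an inflammatory cytokine, differed by −1.26 (limma adjusted p = 2.78e-04), and CCL2, a monocyte attractant, was higher by 1.02 (1.70e-04). SOD2, the mitochondrial superoxide dismutase, at −2.39 and the neutrophil attractant CXCL8 at −1.06 were not called, with limma adjusted p of 0.146 and 0.197.

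**Figure D5:**
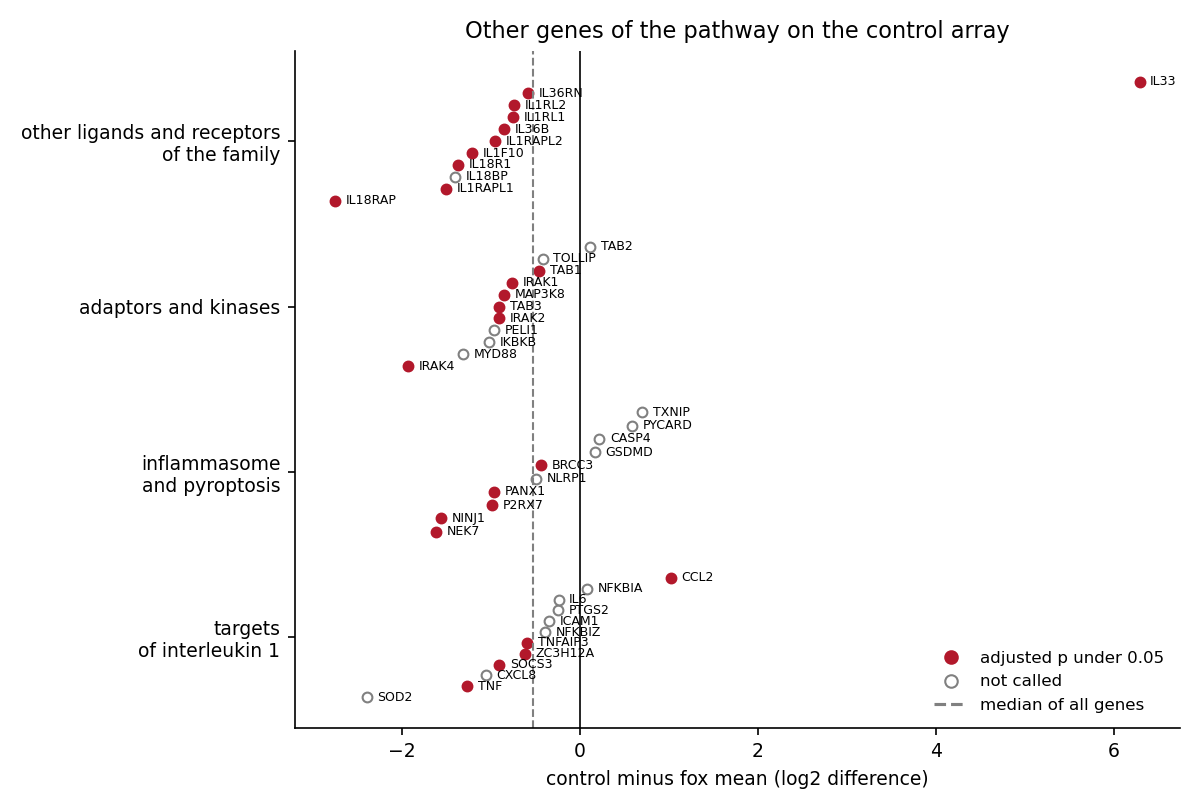
Control minus fox mean (log2 difference, horizontal axis) for 44 other genes of the pathway in 4 lists, each gene by its probe set with the highest mean. Filled red points have a limma adjusted p under 0.05, open points were not called, and the dashed line is the median of all genes at −0.53. IL33 stands alone at 6.29, and 24 of the 26 called genes lie to the left of 0.

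In foxes 9, 10 and 11, 9 of the 44 pathway genes lay above all of foxes 1 to 8, beside 14.2% of all genes, and 8 lay below, beside 14.6%. The signalling adaptor MYD88 had 10.55, 11.08 and 10.45 in these foxes and 8.28 to 9.17 in foxes 1 to 8 around 8.76. IL18RAP had 10.73, 11.88 and 10.02 against 8.36 to 9.55 around 8.66, and IL18BP 13.22, 13.24 and 13.31 against 11.24 to 12.65 around 11.91. SOD2 and IKBKB were also among the 9, as were PELI1 and, named after their values were seen, NFKBIA, PYCARD and CASP4. The 8 below, also named after their values were seen except IL1RAPL1, were the ligands or antagonists IL36B, IL36RN and IL1F10, the receptors IL1RAPL1 and IL1RAPL2, the kinase IRAK1, the adaptor TAB3 and the nuclear inhibitor NFKBIZ. IRAK1 had 6.68, 6.46 and 6.49 in foxes 9, 10 and 11 and 6.77 to 7.29 in foxes 1 to 8, and TAB3 5.66, 5.42 and 5.58 against 5.78 to 6.23. In carnivores the genes of caspase 1 and caspase 4 are known as a fused gene. The probe set annotated as CASP4 stood at 10.64 on the control, at 12.21, 12.16 and 11.86 in foxes 9, 10 and 11, and between 9.08 and 10.80 in foxes 1 to 8.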

How the data were processed

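RNA from blood in stabilising tubes was run on Affymetrix Canine Genome 2.0 arrays at a core facility, per the labels' protocols. The deposited values are on a log2 scale; per the submitters' processing notes, the authors made them by RMA (background correction, quantile normalization, summary per probe set) with Expression Console of Affymetrix. No source used here gives the software versions or says which arrays shared a normalization. From the 43035 rows, 111 Affymetrix control probe sets were left out of tests. Probe sets were named from the platform annotation if they had 1 gene symbol (29254 of 42924). Sets ending in _s_at can hold probes shared between transcripts. A gene in the pathway or marker lists was read from its probe set with the highest mean.

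The control was compared with 11 foxes in limma 3.58.1 (R 4.3.3; lmFit, eBayes), with Benjamini-Hochberg adjustment over all 42924 probe sets and a threshold of 0.05; the fit takes the lone control to vary like the foxes. With 1 array against 11, the smallest p of an exact permutation is 0.0833. The labels do not state that the foxes are separate animals, so p-values measure only the spread between these samples. The limma script was tested on simulated data. Correlations used all pairings of foxes in numpy 2.4.6, two-sided. The planned pairs with CASP1 were not run. The number of arrays limits the precision.

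The members, lists and pairs were chosen with earlier results of these data known. Text names every member, up to 4 genes per pathway list with the largest absolute difference, and the 3 genes most like IL1B and IL1R2. Alternatives were both rescalings, a filter on low probe sets, limma's trend and robust options, a size limit of 1 on the log2 difference, other measures of spread, the mean of a gene's probe sets, Spearman correlation, and foxes left out. Of the 56 pathway genes, 44 had a probe set with a single symbol.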

Additional observations from a re-analysis of the deposited data

How the results depend on the processing

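The 9 called probe sets of the members became 5 with arrays centred on their medians and 7 after quantile normalization again. They were also 5 when the log2 difference had to reach 1 in size. Without foxes 9, 10 and 11 they were 12, and 9 to 10 with each fox left out in turn. The 26 called pathway genes became 18 with centred arrays (15 lower and 3 higher) and 22 after quantile normalization again. They were 12 among probe sets with a mean above the median (27 genes tested) and 10 with that size limit. With each fox left out they were 25 to 28, without foxes 9, 10 and 11 they were 33, and with a gene's probe sets averaged 32. The median control minus fox difference of all probe sets moved to −0.31 once arrays were quantile normalized again, and to −0.19 once they were centred, and that of the members to −0.73 in both. The _at set of IL1B with the lower values, which was not called, reversed to 0.078 and 0.23 under these scalings. The 6 variable probe sets became 0 at an SD of at least 1 (beside 3% of all). They were 3 within foxes 1 to 8 (beside 7% of all), and 5 to 6 with each fox left out. The 4 probe sets without overlap between foxes 9 to 11 and foxes 1 to 8 became 3 with centred arrays. After quantile normalization again they were 2, that of NLRP3 and 1 of IL1RAP. Of the 6 pairs, 1 passed after quantile normalization again and 0 with each fox left out. Causes of these changes were not tested. The share of all probe sets called by limma under the changed settings is not given here. The changed counts are therefore not read as particular to the members or the pathway. The filter on low probe sets left 7 of the 14 probe sets of members to test. No paired analysis was possible because the replicate numbers of control and foxes come from the order of the series and the control has 1 array.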

Other observations

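In the Arctic fox RefSeq annotation (ASM1834538v1), used here for gene order alone, IL18R1, IL1RL1, IL1RL2, IL1R1 and IL1R2 follow one another as neighbouring protein-coding genes. Their spread over foxes 1 to 8 differed from gene to gene. The share of tested probe sets with an SD there at least as large was 10.4% for IL18R1, a chain of the IL18 receptor, 91.9% for IL1RL1, the receptor of IL33, 33.7% for IL1RL2, the receptor of the IL36 ligands, 98.1% for IL1R1 and 1.08% for the first probe set of IL1R2. In foxes 9, 10 and 11, IL18R1 stood at 7.14, 7.24 and 7.05, inside the 5.86 to 7.20 of foxes 1 to 8 in 2 of the 3. The 7.20 was fox 4 alone, and the others of foxes 1 to 8 stood at 5.86 to 6.33. Foxes 9, 10 and 11 thus all lay above foxes 1 to 8 other than fox 4. IL1RL1 stood at 7.65, 7.74 and 7.77 in foxes 9, 10 and 11, beside 7.74 to 8.06.

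In the same annotation IL1A stands next to IL1B, and IL1RN is followed by IL1F10, IL36RN and IL36B, further ligands or antagonists of the family. IL1F10, IL36RN and IL36B were lower in foxes 9, 10 and 11 than in any of foxes 1 to 8, at 6.94 to 7.15, 6.23 to 6.27 and 7.49 to 7.54, against 7.16 to 7.69, 6.32 to 6.85 and 7.72 to 8.01. Their neighbour IL1RN lay above in the same foxes as deposited, but no longer did so after quantile normalization again. The gaps of IL1F10 (7.15 against 7.16) and IL36RN (6.27 against 6.32) were small. Whether IL1F10, IL36RN and IL36B stay apart after rescaling was not checked, and 14.6% of all genes lay below in these foxes. No test was made of these orders.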
